A study of Mus musculus with 3 samples.

Results

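Of the 1287 intervals (peaks) that the authors listed for a ChIP-seq sample of the transcription factor LMX1B in mouse limb buds, 247 lay at a gene end and had no counterpart in a further ChIP with the same antibody. They were chosen by the deposited interval positions alone: no base of overlap with an interval of the other ChIP, and a midpoint within 1 kb of either end of a RefSeq gene of any biotype on build mm10. They are called members below. The first ChIP listed 580 intervals that the other ChIP did not overlap, so 333 more lay away from gene ends, while 108 of its intervals at gene ends were shared by both ChIPs. Both lists together held 5788 intervals, 4501 of them from the other ChIP, of which 621 lay at gene ends without a first-ChIP counterpart.

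Both ChIPs used limb buds of C57BL/6 embryos at embryonic day 12.5 and the polyclonal antibody BMO8 against Lmx1b, and the series describes pooled fore and hind limbs from 2 runs of 48 limb buds each. The first ChIP's track name marks wild-type tissue, and that of the other, titled a validation of BMO8 and called the validation ChIP here, gives no genotype. An input library came from wild-type and mutant chromatin pooled together, and no interval list of it was used here. Each ChIP is 1 sample, so no value below has a replicate error, no test between the ChIPs was possible, and every comparison is a description of these lists. Sequencing depth is unknown because interval lists carry no read counts, and interval lists carry no expression values against which the limb bud label could be checked.

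LMX1B is a LIM homeodomain transcription factor that specifies the dorsal side of the limb, and homeodomain proteins of its kind bind short A- and T-rich sequences built around a TAAT core. Ribosomal protein genes encode the protein parts of the ribosome and are among the most strongly transcribed genes of dividing embryonic cells. Their promoters are typically rich in CpG dinucleotides, and their transcripts tend to begin within a run of C and T bases.

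The promoters shown are those of the 8 highest-scoring members with an annotated start within 1 kb of the summit. Starts came from the RefSeq promoter table (assembly GRCm38.p6, the coordinates of mm10). Rpl32, Cct4, Snord58b, Rps14 and Nfe2l2 scored as high as some of these members or higher, but had no such start. Each stretch runs 5′ to 3′ on the strand of its gene, from 120 bases before the annotated start to 30 bases from it on. Capitals mark matches on either strand to 10 short elements that are listed with their shares further on. Rpl5, Rpl7a, Rps15, Rpl18 and Rps10 encode ribosomal proteins, Ddx39b an RNA helicase of messenger RNA splicing and export, and Tmem176b a membrane protein. 5430416N02Rik is a gene named only by its clone.
Rpl5, chr5:107900408-107900557, plus strand: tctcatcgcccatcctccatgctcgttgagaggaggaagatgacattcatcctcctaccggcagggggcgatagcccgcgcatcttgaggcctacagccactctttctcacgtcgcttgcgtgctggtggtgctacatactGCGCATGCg
Rpl7a, chr2:26910687-26910836, plus strand: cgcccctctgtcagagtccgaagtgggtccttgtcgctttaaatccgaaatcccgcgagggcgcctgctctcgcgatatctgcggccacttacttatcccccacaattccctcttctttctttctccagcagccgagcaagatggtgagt
Rps15, chr10:80292311-80292460, plus strand: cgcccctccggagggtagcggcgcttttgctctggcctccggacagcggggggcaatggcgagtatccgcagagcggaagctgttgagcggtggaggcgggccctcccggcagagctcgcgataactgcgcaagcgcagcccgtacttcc
Tmem176b, chr6:48841345-48841494, minus strand: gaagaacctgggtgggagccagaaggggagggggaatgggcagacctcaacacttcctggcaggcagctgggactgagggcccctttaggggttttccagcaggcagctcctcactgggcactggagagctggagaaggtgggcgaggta
Rpl18, chr7:45717951-45718100, plus strand: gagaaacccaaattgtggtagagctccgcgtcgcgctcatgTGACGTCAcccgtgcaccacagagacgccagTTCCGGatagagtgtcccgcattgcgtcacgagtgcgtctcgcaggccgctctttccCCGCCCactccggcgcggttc
Ddx39b, chr17:35241626-35241775, plus strand: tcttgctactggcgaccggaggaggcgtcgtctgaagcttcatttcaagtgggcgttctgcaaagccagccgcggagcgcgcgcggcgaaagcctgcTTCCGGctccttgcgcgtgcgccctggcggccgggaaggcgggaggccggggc
5430416N02Rik, chr5:100429506-100429655, minus strand: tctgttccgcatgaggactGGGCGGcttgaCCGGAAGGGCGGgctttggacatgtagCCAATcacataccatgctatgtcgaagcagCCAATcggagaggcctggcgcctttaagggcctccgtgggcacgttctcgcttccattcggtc
Rps10, chr17:27635215-27635364, minus strand: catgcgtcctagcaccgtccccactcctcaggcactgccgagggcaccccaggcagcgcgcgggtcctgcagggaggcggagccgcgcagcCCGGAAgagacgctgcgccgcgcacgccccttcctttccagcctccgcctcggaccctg
The stretches of Rpl7a, Rps15 and Tmem176b held none of the 10 elements, and no stretch held TAATTA. The summits of these members lay 89 to 177 bp downstream of the annotated starts, past the bases shown.

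TAATTA, a homeodomain core read the same on both strands, stood in the 300-base promoter entry of only 2 of 188 members, those of Gm51937 and Plpp3, which encodes a lipid phosphate phosphatase. Both windows of 40 bases are given first, with the element in capitals and on the strand of the gene. Then come those from the promoters at 5 shared intervals at gene ends, where TAATTA lay before the annotated start. A TAATTA at Gm34157, also shared, began 26 bases after the start and is not shown.
Gm51937 member, chr11:11836122-11836161, plus strand: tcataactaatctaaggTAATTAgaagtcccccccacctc
Plpp3 member, chr4:105157206-105157245, plus strand: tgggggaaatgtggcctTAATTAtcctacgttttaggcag
Sh3gl1 shared, chr17:56036870-56036909, minus strand: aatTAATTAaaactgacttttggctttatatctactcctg
Gm30319 shared, chr2:110295423-110295462, plus strand: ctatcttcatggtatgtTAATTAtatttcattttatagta
Morc3 shared, chr16:93831878-93831917, plus strand: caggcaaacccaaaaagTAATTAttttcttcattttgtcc
Manbal shared, chr2:157367481-157367520, plus strand: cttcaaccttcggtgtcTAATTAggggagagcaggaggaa
H1f3 shared, chr13:23554840-23554879, plus strand: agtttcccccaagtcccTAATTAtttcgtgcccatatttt
At the Gm51937 and Plpp3 members, with scores of 22 and 17, the first-ChIP summits lay 542 and 445 bp downstream of the annotated starts, so the element stood 757 and 569 bp from them. At the 5 shared intervals the element lay nearer, 10 bp from the first-ChIP summit at Manbal, 22 bp at Sh3gl1, 169 bp at Morc3, 311 bp at H1f3 and 336 bp at Gm30319. The windows at Manbal and Sh3gl1 lay inside the first-ChIP interval. Those at Morc3, H1f3 and Gm30319 lay outside it.

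The deposited summit score, a whole number with no stated unit, was 13 at the lowest member, 19 at the median and 54 at the highest. The unmatched intervals away from gene ends had scores of 12 to 35 with a median of 18, and the shared ones at gene ends had 14 to 85 with a median of 21.5. The 3 medians lay close together, while the highest member score lay above that of the intervals elsewhere and below that of the shared ones. Members were 229 to 1145 bp wide, with a median of 383 bp, against 317 bp for the unmatched intervals elsewhere and 443.5 bp for the shared ones at gene ends. Scores of the 2 ChIPs are on scales that the sources do not relate, so they were not set against each other.

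The 4 highest-scoring members all lay at ribosomal protein genes. Rpl32 (chr6:115808219-115809006) had a score of 54, Rpl5 (chr5:107900374-107901014) 53, Rpl7a (chr2:26910568-26911433) 51 and Rps15 (chr10:80292273-80293070) 48. These 4 intervals were 788, 641, 866 and 798 bp wide, all wider than the median member. Next, with a score of 46 each, came Cct4, a subunit of the cytosolic chaperonin, Tmem176a, Sphk2 and Snord58b. The Tmem176a interval had its summit 110 bp downstream of the start of the neighbouring Tmem176b. The Sphk2 interval (chr7:45717858-45718652) was listed under Sphk2 by the rule because its midpoint lay 253 bp from an end of that gene, while its summit lay 105 bp downstream of the start of the neighbouring Rpl18. Snord58b is a small nucleolar RNA whose member interval lay in the body of the ribosomal protein gene Rpl17. Snhg9, with a score of 32, likewise had its summit 129 bp downstream of the start of Rps2. Rps14, of the small ribosomal subunit, had a score of 45.

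Among the other 25 highest-scoring members were Ddx39b and Nfe2l2, the regulator of the oxidative stress response, each with a score of 39. 5430416N02Rik had 38, Slc35b1, a transporter of the endoplasmic reticulum, 33, 4930507D05Rik 32 and Snrpb, a core protein of the spliceosome's small ribonucleoproteins, 31. Cdc27, a subunit of the anaphase-promoting complex, and Ppp2r2a, a regulatory subunit of protein phosphatase 2A, had 29 each. The 4930507D05Rik summit lay 86 bp before the start of Supv3l1, a mitochondrial RNA helicase, and the interval midpoint 717.5 bp from an end of 4930507D05Rik. Of the 23 members with scores of 30 to 54, 12 (52.2%, 95% Wilson interval 33.0 to 70.8) had a ribosomal protein gene end within 1 kb. The Snord58b, Sphk2 and Snhg9 intervals are not among those 12. The share was 3 of 15 at scores of 25 to 29, 6 of 84 at 20 to 24, 1 of 91 at 17 to 19 and 1 of 34 at the lowest scores, up to 16. Wilson intervals here and below cover counting error only.

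**Figure D1:**
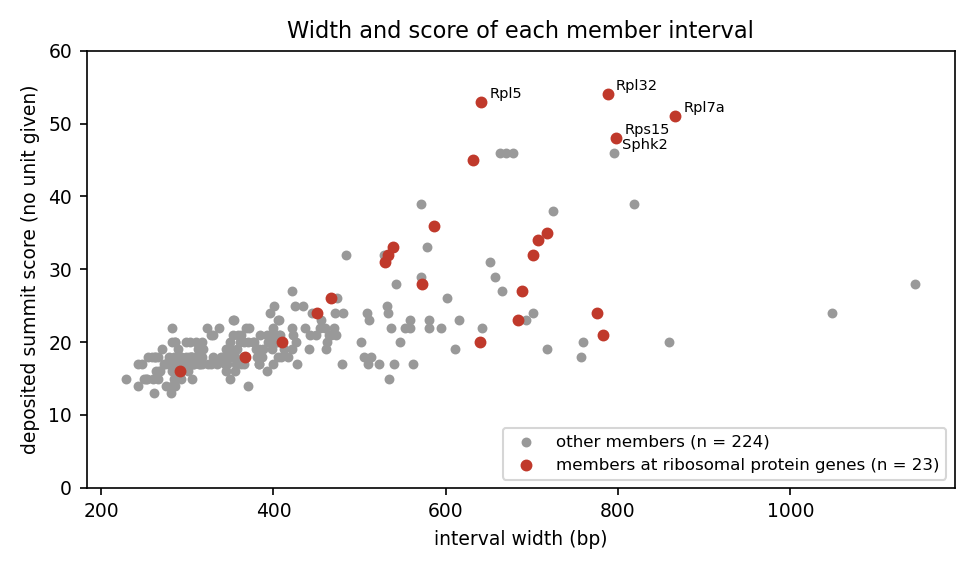
Each point is 1 of the 247 members, with its width in bp on the horizontal axis and the deposited summit score, which has no stated unit, on the vertical axis. Red points are the 23 members within 1 kb of an end of a ribosomal protein gene, and the gene names mark some of the highest scores. Red points are scattered from 16 to 54 and make up 12 of the 23 points at 30 or above.

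Over all protein-coding genes of the table, 258 of 21887 (1.18%) had a member within 1 kb of an end, 69 (0.315%) a shared interval and 508 (2.32%) a validation-only interval. The rule chose intervals and not genes, and gene lists were read against those shares. Ribosomal protein genes lay above the first and the second: 23 of 85 (27.1%, Wilson interval 18.8 to 37.3) had a member and 14 (16.5%) a shared interval. With 2 of 85 (2.35%) at a validation-only interval they lay at the background share. Counting every validation interval, shared or not, 16 of 85 (18.8%, 11.9 to 28.4) had one at an end, against 2.63% of protein-coding genes. For 46 of the 85 no interval of either ChIP lay at an end. Counted anywhere in the gene or within 1 kb of it, 26 of 85 (30.6%) had an unmatched first-ChIP interval, against 1.94% of all protein-coding genes, the additions being Rpl17, Rpl18 and Rps2. Both ribosomal subunits were among the 23, with 18 genes of the large subunit and 5 of the small one.

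The large-subunit genes with a member were Rpl5, Rpl7a, Rpl9, Rpl10a, Rpl12, Rpl21, Rpl24, Rpl26, Rpl29, Rpl30, Rpl31, Rpl32, Rpl34, Rpl35, Rpl35a, Rpl36, Rpl37 and Rpl41. The small-subunit genes were Rps3a1, Rps10, Rps14, Rps15 and Rps24. Scores of the 23 members ran from 16 at Rpl41 to 54 at Rpl32, with a median of 31, against a median of 19 in the other 224 members. Scores of the others reached 46, and they include the Snord58b, Sphk2 and Snhg9 intervals. The median width of the 23 was 640 bp, against 366.5 bp in the others. Below the scores already given, Rpl9 had 35, Rpl36 34, Rpl10a 33, Rpl26 and Rps3a1 32 each, and Rpl35 31. Rpl34 had 28, Rpl24 27, Rpl21 26, Rps24 and Rpl37 24 each, Rpl29 23, Rpl12 21, Rpl30 and Rpl31 20 each, and Rpl35a 18.

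The shared ribosomal protein genes included Rpl6, Rpl7, Rpl8, Rpl11, Rpl13, Rpl23, Rpl27, Rps3, Rps6, Rps7, Rps15a and Rps18. Their first-ChIP scores ran from 22 to 75, with Rps7 at 75, Rpl11 at 61 and Rps6 at 60, and overlapped the range of the members. Their validation scores were 7 to 16, within a list whose validation-only intervals at gene ends had a median of 10 and reached 32. The 2 genes with a validation-only interval, Rpl23a and Rpl38, had validation scores of 12 and 13. When only validation intervals at or above that list's median score counted, 28 ribosomal protein genes had an unmatched first-ChIP interval.

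Other genes of translation and RNA handling also had member shares above 1.18%. Of 39 translation factors, 6 had a member (15.4%, 7.25 to 29.7): Rack1, a scaffold protein of the small ribosomal subunit (score 27), Eif4a2 (21), Eif3a, Eif3d and Eef1a1 (20 each) and Naca (19). Of 51 genes of RNA processing, 7 had one (13.7%, 6.81 to 25.7), namely Ddx39b, Snrpb, Hnrnpm (22), Hnrnpk and Srsf7 (21 each), Sf3b3 (20) and Tra2a (19). The Hnrnpk and Sf3b3 intervals also lay at the ends of Rmi1 and Cog4, so the interval could not be given to 1 gene. Among nucleolar proteins and hosts of small nucleolar RNAs, Ncl (21) and Snhg15 (22) had a member, 2 of 28. Chaperones and proteasome subunits gave 3 of 47, Cct4, Calr (28), the calcium-binding chaperone of the endoplasmic reticulum, and Psmb2 (20).

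Mitochondrial ribosome genes had 4 members of 78 (5.13%, 2.01 to 12.5), all but Mrps30 at an end shared with a neighbour: Mrpl44 with Wdfy1 (26), Mrpl21 with Ighmbp2 (22) and Mrpl48 with Rab6a (17). Mrps30 had 17. Oxidative phosphorylation gave 3 of 97 (3.09%, 1.06 to 8.7), Ndufa4 (25), Ndufa13 (19) and Atp5l, which had 2 members with scores of 17 and 15. Single members stood at Pkm (19) of 18 glycolysis genes, Mcm7 (22) of 34 cell cycle genes and Myl12a (20) of 28 cytoskeleton genes. The Wilson intervals of these shares, like that of oxidative phosphorylation, held the 1.18% of all protein-coding genes. None of 20 tRNA synthetase genes had one.

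Limb development genes gave few members, and their member shares could not be told from the 1.18% of all protein-coding genes. Of 48 limb transcription factor genes, 2 (4.17%, 1.15 to 14) had a member, Pitx1, a hindlimb identity factor, with a score of 21, and Tbx3, a T-box factor of the limb margins, with 18. That interval of the share holds the 1.18% of all protein-coding genes. The Pitx1 interval lay 70.5 kb and the Tbx3 interval 70.6 kb from the nearest validation interval. The Tbx3 summit lay 564 bp downstream of the start of the divergent transcript Tbx3os1. Shared intervals stood at Hoxa9 and Prrx1, and 10 of the 48 genes (20.8%) had a validation-only interval, among them Tbx5, Hand2, Shox2 and Lmx1b itself. None of 43 limb signalling genes, 40 matrix genes or 14 LIM complex genes had a member, and neither did any of 16 muscle, 18 endothelial and blood, 15 ectoderm, 13 nerve and Schwann or 20 adult liver and gut genes. The upper Wilson limits were 8.2% for limb signalling, 8.76% for matrix and 16.1% to 22.8% for the other lists of this group, so shares of a few percent, the 1.18% of all protein-coding genes included, could not have been told from 0. Counted anywhere in the gene or within 1 kb of it, unmatched first-ChIP intervals stood at 7 of the 48 limb transcription factor genes (14.6%, 7.25 to 27.2), 2 limb signalling and 3 matrix genes, against 1.94% of protein-coding genes. Such intervals over 1 kb from any gene end are not members. Histone genes differed from the ribosomal list. Only 1 of 102 (0.98%), H3c15, had a member, near the 1.18% of all protein-coding genes. A validation-only interval stood at 33 (32.4%), against 2.32% of protein-coding genes. A single validation-only interval lay at the ends of up to 5 genes, so this gene count can exceed the number of intervals.

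**Figure D2:**
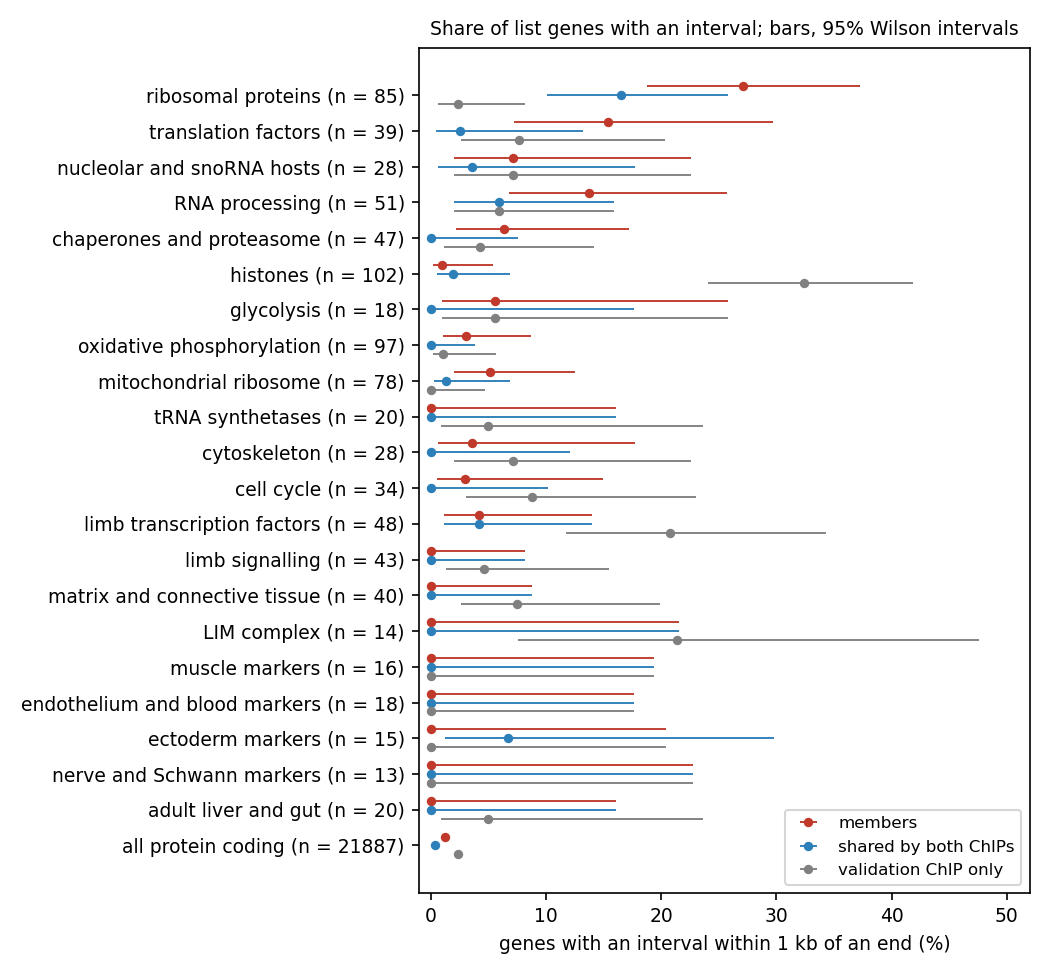
The share of genes of each list, in percent, that had an interval midpoint within 1 kb of an end, for members (red), shared intervals (blue) and validation-only intervals (grey), with 95% Wilson intervals that cover counting error only. The red point of the ribosomal proteins lies at 27.1% and the grey point of the histones at 32.4%, while all protein-coding genes lie at 1.18%, 0.315% and 2.32%.

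The lists covered 55 members (22.3%), and 192 belonged to none. The nearest gene was protein-coding for 202 members (81.8%), a long non-coding RNA for 36, and a tRNA for 3, a microRNA for 2, a small nucleolar RNA for 2, a small nuclear RNA for 1 and a pseudogene for 1. A protein-coding end lay within 1 kb of 213 members (86.2%), of 66 of 108 shared intervals at gene ends (61.1%) and of 445 of 621 validation-only ones (71.7%). One gene end was in reach of 166 members and more than 1 of 81, with at most 4. Only 1 member lay on chromosome X, at Ogt, and none on chromosome Y, while these hold 4.41% and 1.17% of protein-coding genes. Chromosome 17 held 21 members (8.5%) and 4.84% of protein-coding genes.

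Strand was known for 202 members. A gene start lay within 1 kb of 193 of them (95.5%, Wilson interval 91.8 to 97.6), and 9 had only a 3′ end in reach. Among shared intervals at gene ends 65 of 83 (78.3%, 68.3 to 85.8) had a start, and among validation-only ones 424 of 497 (85.3%, 81.9 to 88.2). Starts of genes on opposite strands both lay within 1 kb of 41 members (20.3%), as at Ap4m1 with Mcm7 and Proser1 with Nhlrc3, against 6 shared (7.23%) and 72 validation-only intervals (14.5%). The annotation used holds no exons, so exon, intron and UTR were not resolved.

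Most member summits near an annotated start lay downstream of it. For the 189 members with an annotated start within 1 kb, the summit lay a median of 74 bp downstream of the nearest start (quartiles 85 bp upstream and 177 bp downstream), and 124 (65.6%) lay downstream. Shared intervals at gene ends had their first-ChIP summit a median of 76 bp upstream, with 26 of 64 (40.6%) downstream. Validation-only summits lay a median of 129 bp upstream, with 118 of 404 (29.2%) downstream. Within the first 300 bp of the gene lay 97 member summits (51.3%), 22 shared ones (34.4%) and 50 validation-only ones (12.4%). Leaving out intervals with starts on both strands in reach, where the nearer start sets the sign, the downstream shares were 64.2% of 148 members, 37.9% of 58 and 25.5% of 333. Most first-ChIP summits, 1240 of 1287, stood on multiples of 16 bp, which limits the precision of each distance.

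**Figure D3:**
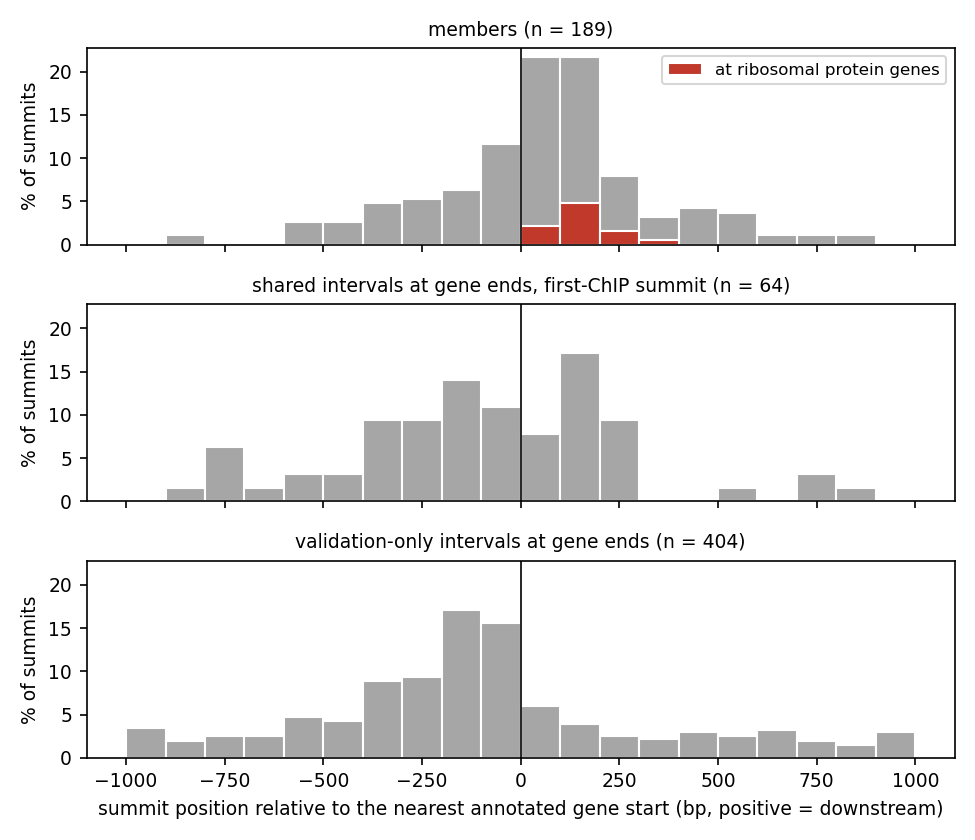
Histograms in 100 bp bins of the summit position relative to the nearest annotated gene start, in bp with positive values downstream, as a percentage of the summits of each set. The top panel shows the 189 members with a start within 1 kb, with those at ribosomal protein genes in red, the middle panel the 64 shared intervals and the bottom panel the 404 validation-only ones. Member summits pile up just downstream of 0 and validation-only summits just upstream.

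All 17 members within 1 kb of a ribosomal protein gene end and of an annotated start had their summit downstream of it, from 50 bp at Rpl26 to 336 bp at Rpl12, with a median of 139 bp. The lowest values after Rpl26 were those of Rpl35a at 62 bp, Rpl7a at 89 bp and Rps24 at 95 bp. The highest before Rpl12 were those of Rpl24 at 253 bp, Rpl37 at 219 bp and Rpl31 at 213 bp. The other 172 members, which here include the Sphk2 and Snhg9 intervals with summits past the starts of Rpl18 and Rps2, had a median of 60.5 bp, and 107 of them (62.2%) lay downstream, so the shift was not limited to ribosomal protein genes. Among the translation factors, Naca lay at 46 bp, Rack1 at 168 bp, Eif3a at 181 bp, Eif3d at 232 bp, Eif4a2 at 436 bp and Eef1a1 at 668 bp. Slc35b1 and Ndufa4 stood upstream, at 88 and 102 bp before the start.

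Both ChIPs gave a summit at the 10 shared ribosomal protein genes with an annotated start. First-ChIP summits lay 75 to 283 bp downstream, a median of 159 bp, which spans much of the range of the members. Validation summits of the same pairs lay between 94 bp upstream and 219 bp downstream, with a median of 97 bp. The first-ChIP summit lay further downstream at 9 of the 10, by a median of 80 bp over all 10 pairs. At Rps6 the first-ChIP summit lay 151 bp downstream and the validation summit 94 bp upstream, and at Rps3 157 bp downstream and 83 bp upstream. Rps18 was the exception, with the first-ChIP summit 32 bp nearer to the start. In the 59 other shared pairs at annotated starts the median difference was 0 bp, with the first-ChIP summit further downstream in 29, further upstream in 20 and at the same base in 10.

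**Figure D4:**
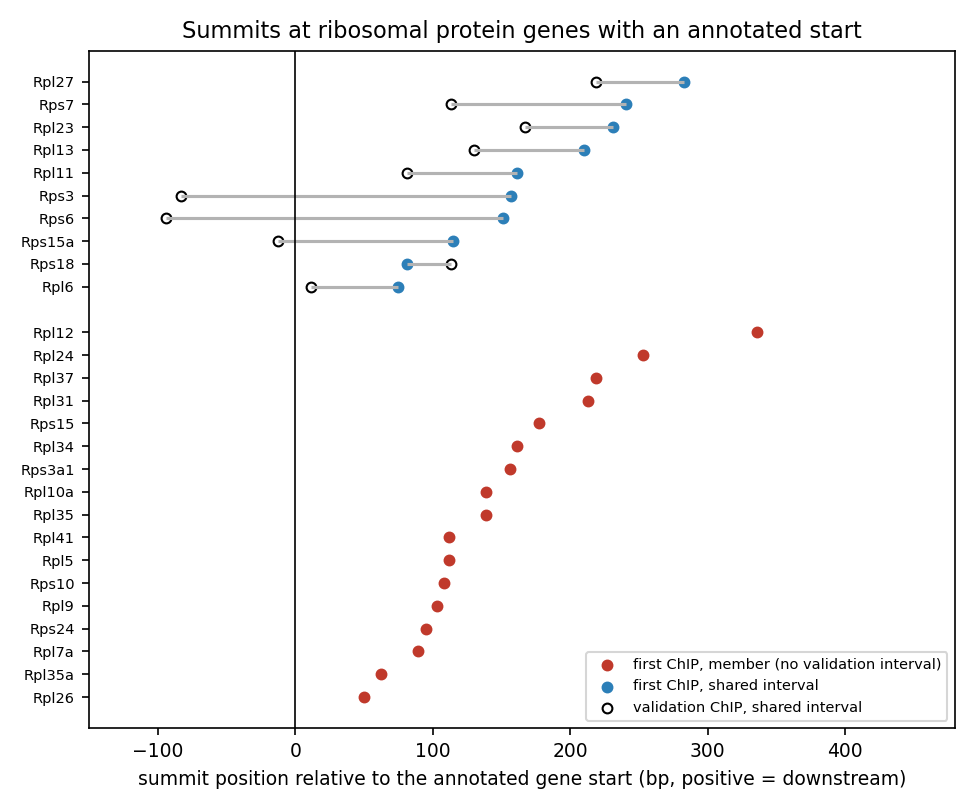
Summit positions at ribosomal protein genes relative to the annotated gene start, in bp with positive values downstream. Red points are the 17 members, and each line joins the first-ChIP (blue) and validation (open) summit of 1 of the 10 shared pairs. All red and blue points lie downstream of 0, and Rps18 is the pair in which the blue point lies left of the open one.

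Promoter entries were found for 188 promoters at members. Their median G and C content was 60.7%, against 54.8% at shared intervals, 56.0% at validation-only intervals and 56.3% over 21263 promoters of protein-coding genes. The ratio of observed to expected CpG was at least 0.6 in 163 of 188 (86.7%, Wilson interval 81.1 to 90.8), against 68.8%, 71.8% and 47.7% in those 3 sets. Of the 19 promoters of ribosomal protein genes at members, which include those of Rpl18 and Rps2, 18 reached it. Runs of at least 8 C or T bases within 15 bases of the start stood in 23 of 188 (12.2%), the same share as the 12.3% of all protein-coding promoters. At ribosomal protein genes they stood in 6 of the 19 member promoters (31.6%, 15.4 to 54) and in 30 of all 76 (39.5%, 29.2 to 50.7).

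The 10 elements were searched on both strands of the whole 300-base entry, 250 bases before and 50 after the start. Median summits lay 74 bp downstream of the start in members, past that window, but 76 bp upstream in shared and 129 bp upstream in validation-only intervals. The window thus covers the sequence at the summits unequally, and a difference between these sets cannot be told apart from that. TAATTA stood in 2 of 188 member promoters (1.06%, Wilson interval 0.292 to 3.8), in 6 of 64 shared (9.38%, 4.37 to 19), in 33 of 397 validation-only (8.31%, 5.98 to 11.4) and in 4.53% of all protein-coding promoters. TTAAT, a homeodomain half-site that can overlap TAATTA, as in TTAATTA, stood in 16%, 40.6%, 36.8% and 23.4% of those 4 sets. Both are A and T only, and base composition moves with these shares. Among promoters with 50% to under 60% G and C, TAATTA stood in 0 of 64 member promoters, 4 of 29 shared, 10 of 144 validation-only (6.94%) and 2.72% of protein-coding promoters. For TTAAT in that band the shares were 23.4%, 37.9%, 34.0% and 20.4%. Under 50%, TAATTA stood in 2 of 20 member promoters, 2 of 18 shared, 21 of 106 validation-only (19.8%) and 11.6% of protein-coding promoters. TTAAT stood there in 10 of 20, 12 of 18, 64.2% and 49.5% of the same sets. At 60% and above, where most member promoters fell, TAATTA stood in 0 of 104 member promoters and 0 of 17 shared. It stood in 2 of 147 validation-only (1.36%) and 0.661% of protein-coding promoters. For TTAAT in that band the shares were 4.81%, 17.6%, 19.7% and 6.38%. In each band the members thus lay near or below the protein-coding share, with few member promoters under 50% and few shared ones throughout.

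Several further elements were more frequent at members than over protein-coding genes, in most cases with Wilson intervals that overlap those of the shared and validation-only promoters. Member promoters were also richer in G and C and in CpG than protein-coding ones. Shares of these further elements were not compared within bands of composition, so an excess cannot be told apart from base composition. GGGCGG, the GC box bound by Sp factors, stood in 117 of 188 (62.2%, 55.1 to 68.9) against 46.2% of protein-coding promoters, 46.9% of shared and 54.4% of validation-only ones. CCGGAA, the core bound by ETS factors, stood in 61 (32.4%, 26.2 to 39.4) against 18.7% of protein-coding promoters, 29.7% of shared and 25.4% of validation-only ones. It stood in 11 of the 19 ribosomal member promoters against 35 of all 76 ribosomal ones (46.1%). Without the ribosomal genes, CCGGAA stood in 50 of 169 (29.6%). GCGCATGC, bound by NRF1, stood in 7.98% of member, 3.52% of protein-coding, 6.25% of shared and 6.3% of validation-only promoters. TGACGTCA, the cyclic AMP response element, stood in 5.32%, 2.23%, 3.12% and 1.76% of the same sets. GCCATCTT, a site of YY1, stood in 5.32%, 3.05%, 6.25% and 5.54%, close together in the 3 interval sets. CCAAT, bound by NF-Y, stood in 36.7%, close to the protein-coding 38.2%, but in 51.6% of shared and 52.9% of validation-only promoters. CACGTG, the E-box, stood in 11.2%, 7.84%, 7.81% and 10.1% of the sets in the former order, and TATAAA, the TATA box sequence, in 7.98%, 12.6%, 12.5% and 10.3%. A match is a string of letters and not a bound site, and the window ends before most member summits.

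**Figure D5:**
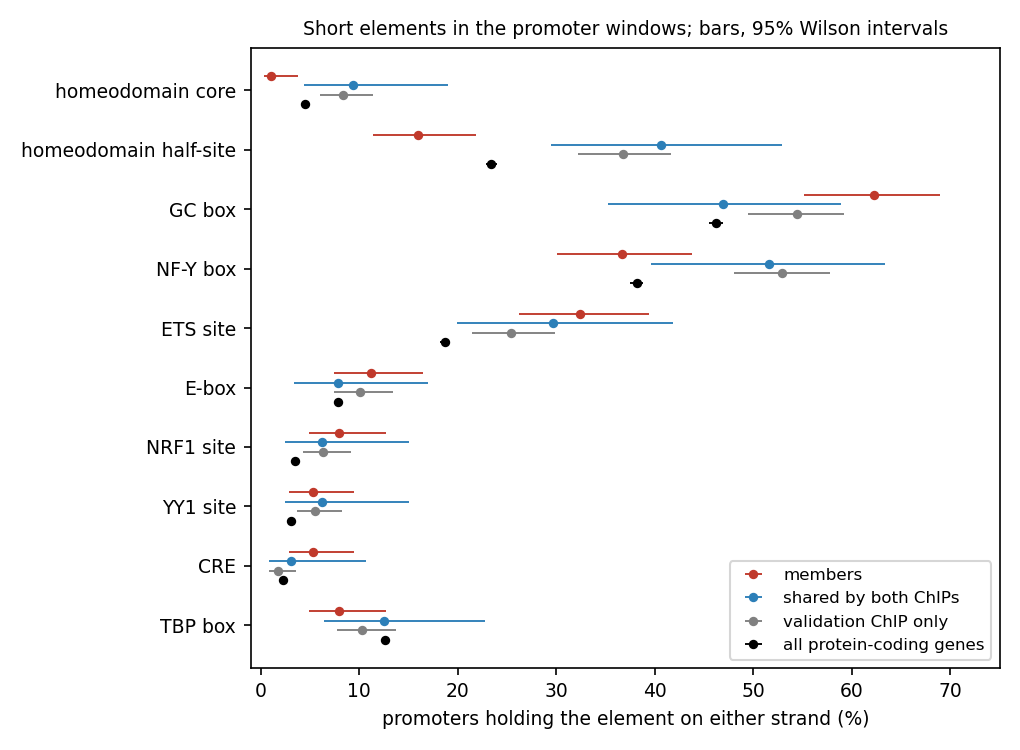
The percentage of 300-base promoter entries that hold each of 10 short elements on either strand, for members (red, 188), shared intervals (blue, 64), validation-only intervals (grey, 397) and all protein-coding genes (black, 21263), with 95% Wilson intervals that cover counting error only. The red point lies left of the others for both homeodomain elements (1.06% and 16%) and to the right for the GC box (62.2%).

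The rule chose on overlap and on distance to a gene end, so the distances here describe the members and support nothing. The nearest validation interval lay a median of 177 kb away (quartiles 36.4 and 416 kb, farthest 5146 kb), against 70.5 kb for the unmatched first-ChIP intervals away from gene ends. Within 100 kb lay a validation interval for 101 members (40.9%) and for 195 of those 333 (58.6%). A few members only just missed an overlap, 13 (5.26%) having a validation interval within 500 bp. The smallest gaps were 5 bp at Kif22, 26 bp at Gdi2 and 114 bp at the interval of Marcks and 5930403N24Rik. On the other side of that threshold, shared intervals overlapped by 4 bp at Zfp143, 7 bp at Gm41209 and 30 bp at Gm39827. At the 1 kb threshold, Nfe2l2, Cox18 and Mab21l2 lay inside at 987, 986 and 980 bp from a gene end, and Macroh2a2, Gm34250 and Plxnc1 outside at 1006, 1024 and 1028 bp. None of the 23 ribosomal members lay within 500 bp of a validation interval; the nearest was that of Rpl34, at 6.99 kb. The midpoint lay within 500 bp of the gene end in 197 members (79.8%), with a median distance of 204 bp.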

How the data were processed

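ChIP-seq intervals of 2 limb bud samples were used, each with 1 deposited list. Per the submitters' processing notes the reads were handled with BWA on build mm10; which peak caller was run, at which threshold and with what use of the input is not given in the sources used here. The authors deposited each interval with a summit and a summit score, a whole number whose unit and normalization are not stated. The first ChIP's list was deposited again with the validation list, identical in its 1287 intervals and different in 1 summit; it was counted once.

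Starts were converted to positions counted from 1. Gene ends came from a RefSeq table of GRCm38.p6 (49943 genes) without strand. Strand, annotated starts and sequence came from the RefSeq promoter table, which covered 27025 genes and holds 32851 promoters of 300 bases; genes without an entry have no strand here. Intervals were classed by overlap of at least 1 bp and by midpoints within 1 kb of a gene end. Promoters were searched for 10 elements on both strands. Python 3.11.15 with pandas, numpy and scipy was used, and the overlap, distance and search steps were checked on simulated data. Wilson intervals have a 95% level.

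The members and the 21 gene lists were chosen with earlier results of these data known. Genes were named by a rule: the 25 highest-scoring members, all members at ribosomal protein genes, the 5 highest-scoring members of each other list, and the 3 nearest each threshold on either side. Further names complete a count or give an example and were chosen after their values were seen. Alternatives covered the overlap rule, score minimums, the gene-end window, the biotype, the interval position, and the promoter window and strand.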

Additional observations from a re-analysis of the deposited data

How the results depend on the processing

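With 1 sample a ChIP there are no replicates to leave out, and no sequencing depth is known. The number of ribosomal protein genes with a member ran from 19 to 28 over all alternatives, main count 23; the lowest, with the summit within 1 kb of an annotated start, and 26 anywhere in the gene were chosen after seeing the data, as was leaving out the ribosomal members, which kept all other values within their intervals. Of 247 members, 122 had a score at or above 20, the median of the whole first-ChIP list; among these the median score was 22, the median width 467 bp, the median summit position 103 bp downstream and the downstream share 72.0%. When an overlap had to cover 50% or more of each interval, the median distance to a validation interval was 106 kb and the protein-coding share 75.5%. That distance was 308 kb against validation intervals at or above their median score. A window of 2.5 kb gave a start at 90.1% of members with a strand, and protein-coding genes alone gave a protein-coding share of 100% by construction. Of the counts for single smaller lists, 11 moved by over 1.5 times, all of them counts of 4 or fewer, and 93 did not. Counted anywhere in the gene or within 1 kb, limb transcription factors went from 2 to 7, limb signalling from 0 to 2 and matrix genes from 0 to 3.

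Shorter or single-strand searches find fewer letters by construction. In the 100 bases before the start, TAATTA stood in 0.0% of member promoters, TTAAT in 1.06%, GGGCGG in 40.4%, CCAAT in 21.3%, CCGGAA in 17%, CACGTG in 3.72%, GCGCATGC in 3.19%, GCCATCTT in 1.6% and TATAAA in 2.13%. On the gene strand alone TTAAT stood in 8.51%, GGGCGG in 41.0%, CCAAT in 21.8%, CCGGAA in 18.1%, GCGCATGC in 4.79%, GCCATCTT in 2.66% and TATAAA in 4.79%.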

Other observations

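A further deposited track of 735 active regions held 13 members with identical coordinates, the same 13 that lay within 500 bp of a validation interval. Among them were Ccng2, Rbl1, Pou2f1, Hoxa3, Kif22, Plpp3 and Chd2. The track also held all 108 shared intervals at gene ends. Of the 333 unmatched intervals away from gene ends it held 15, and 15 of the 333 lay within 500 bp of a validation interval. The track thus follows nearness to a validation interval, so its match with these intervals gives no separate support. Members were scattered over the genome: 8 had another member within 50 kb and 2 within 10 kb, the latter being the pair at Atp5l. Of the 333 genes with a member within 1 kb of an end, 21 also had a validation interval at an end. Over all 49943 genes of the table, 921 (1.84%) had a validation interval at an end, and over 21887 protein-coding genes 575 (2.63%). Of the 333 genes, 258 were protein-coding. The rule chose members by their lack of overlap with validation intervals, so these shares support nothing.

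The tRNA genes n-TYgta10, n-TWcca7 and n-TKctt29 had member scores of 19, 17 and 17, the microRNA Mir7655 had 21, and the small nuclear RNA Gm23444 had 16.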
